A study of Mus musculus with 35 samples.

Results

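The complement components and regulators measured here were 9 genes, C1qa, C1qb, C1qc, C1ra, C3, C4b, Cfb, Serping1 and C3ar1. They were taken by symbol from a table of 14174 genes, and all 9 were found, were above 0 in every library and passed the filter on low values. Aortas of C57BL/6 mice were profiled by RNA-seq in 12 groups made of 3 genotypes, 2 diets and 2 feeding times, 35 libraries in all. The genotypes were wild type (WT), mice without apolipoprotein E (EKO), and EKO mice that also overexpress human apoA-I (EKO/hA-I). EKO/hA-I mice therefore lack apoE as well, and the labels name no promoter or expressing tissue for the human gene. Mice were 8 weeks old at the start and ate regular chow (4RF21) or Western diet (TD.88137, WD) for 6 or 22 weeks, which gave ages of 14 and 30 postnatal weeks. Feeding time and age thus changed together. There were 3 libraries in a group, 1 per aorta, and 2 for EKO/hA-I on chow at 6 weeks; the vessel ran from its root down to the iliac bifurcation, with the surrounding fat removed.

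Complement is a set of plasma and tissue proteins that tag particles and dying cells for uptake and can open pores in membranes. C1q, built from the products of C1qa, C1qb and C1qc, binds targets and activates the proteases C1r and C1s, which cleave C4 and C2 and so lead to cleavage of C3; factor B forms the C3 convertase of the alternative pathway, and C1 inhibitor, the product of Serping1, blocks C1r and C1s. In tissues C1q is made mainly by macrophages, whereas C1r, C1s and C1 inhibitor are typical products of fibroblasts and hepatocytes, and C3 and factor B are made by many cell types.

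Libraries rested on 6856000 to 25330000 reads, inferred from the step between low values. Values are taken as normalised read counts that were not divided by transcript length, which was inferred from the values. Levels are therefore compared between groups and not between genes. Differences are log2 of value plus 1 with their standard error (SE) from limma, with n = 3 libraries in each group unless stated; a gene is called when its adjusted p is under 0.05. The p-values rest on a spread that limma estimates per gene from all 12 groups together, drawing also on other genes. It is not the spread of only the 2 groups compared. With the compared groups fitted alone, 40 of 95 called member results lost their call. The p-values take in only the spread among the aortas sequenced. In whole-aorta RNA, a smaller number of cells of one type and less RNA per cell cannot be told apart. Apoe ranged from 415.6 to 1276 in WT libraries and from 5.37 to 29.68 in the others. Replicate 3 of WT on WD at 22 weeks carries EKO in its genotype tag and WT in its title, and its Apoe value was 540.4. It was kept as WT, and values without it are given where a call was lost. Y-linked transcripts were low in 12 of 35 libraries (a mean of 0.04467 to 1.33 over the listed Y-linked genes, against 38.21 to 86.74 in the other 23). Each group had 1 such library except EKO on chow at 22 weeks, with 2, and EKO/hA-I on chow at 22 weeks, with 0.

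Promoter sequence was looked up because some members moved together. RefSeq promoter windows (GRCm38.p6) were matched by symbol for 5 of the 9 members, C1qb, C1qc, C3ar1, C1ra and C3. The 250 bases before the annotated start were searched on both strands for 5 short motifs, chosen from general knowledge of macrophage and inflammatory promoters and with the results known. They were GAGGAA (the core bound by PU.1), TTGCNNAA (C/EBP), TTCNNNGAA (STAT), GAAA, NN and GAAA in a row (interferon response) and TGANTCA (AP-1). Of 32851 promoters of this length, 23.3% held GAGGAA, 9.56% TTGCNNAA, 7.02% TTCNNNGAA, 2.98% the interferon response motif and 6.75% TGANTCA. The 4 windows with a match are shown 5′ to 3′ with the matched bases in capitals.
C1qb, chr4:136886201-136886450, minus strand: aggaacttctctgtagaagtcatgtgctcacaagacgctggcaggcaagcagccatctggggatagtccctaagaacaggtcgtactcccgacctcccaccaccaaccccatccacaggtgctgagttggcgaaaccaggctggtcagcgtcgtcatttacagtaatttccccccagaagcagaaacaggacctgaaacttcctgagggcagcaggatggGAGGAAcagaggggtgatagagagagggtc
C1qc, chr4:136892915-136893164, minus strand: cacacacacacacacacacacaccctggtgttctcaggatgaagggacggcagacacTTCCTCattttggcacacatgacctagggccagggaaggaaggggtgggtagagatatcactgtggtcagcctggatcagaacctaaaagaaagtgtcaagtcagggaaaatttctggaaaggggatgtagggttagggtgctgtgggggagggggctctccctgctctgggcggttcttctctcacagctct
C3ar1, chr6:122856158-122856407, minus strand: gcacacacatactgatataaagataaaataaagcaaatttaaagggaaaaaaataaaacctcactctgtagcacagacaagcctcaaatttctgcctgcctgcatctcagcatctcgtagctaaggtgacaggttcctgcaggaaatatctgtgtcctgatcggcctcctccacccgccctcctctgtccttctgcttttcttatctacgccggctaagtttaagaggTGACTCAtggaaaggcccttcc
C3, chr17:57228137-57228386, minus strand: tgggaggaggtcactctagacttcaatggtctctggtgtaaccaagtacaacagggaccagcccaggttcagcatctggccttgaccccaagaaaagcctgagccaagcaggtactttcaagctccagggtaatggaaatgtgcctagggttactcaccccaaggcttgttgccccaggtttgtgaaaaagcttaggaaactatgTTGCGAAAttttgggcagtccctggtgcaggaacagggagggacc
The capitals mark GAGGAA in C1qb, starting 30 bases before the annotated start, and the same motif on the opposite strand in C1qc (printed as TTCCTC), 193 bases before it. They mark TGANTCA in C3ar1, 22 bases before the start, and TTGCNNAA in C3, 45 bases before it. None of these matches overlapped another, and the C1ra window held none of the 5 motifs. A match is only a description of these letters, and a missing one says only that these letters are not in the window. In the RefSeq order of protein-coding genes (GRCm38.p6), C1qb, C1qc and C1qa are next to each other on chromosome 4, C1ra lies between C1rl and C1s1 on chromosome 6, and on chromosome 17 Cfb lies beside C2, another complement gene.

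The 3 chains of C1q, the recognition molecule of the classical pathway, were highest in EKO aortas after 22 weeks of WD. C1qa was 482, 595.3 and 576.4 in these 3 EKO libraries and 62.48, 71.24 and 35.19 in WT on the same diet and time. C1qb was 667.3, 645.2 and 861.3 in EKO and 55.61, 66.66 and 31.5 in WT. C1qc was 414.9, 472.9 and 625.2 in EKO and 48.93, 56.89 and 31.06 in WT. For each chain every EKO library on WD at 22 weeks lay above all 32 other libraries, whose highest values were 226.5 for C1qa, 248.7 for C1qb and 211.6 for C1qc. The log2 difference between EKO and WT was 3.32 ± 0.32 for C1qa (SE; adjusted p = 1.1e-08), 3.85 ± 0.36 for C1qb (adjusted p = 7.7e-09) and 3.46 ± 0.35 for C1qc (adjusted p = 2.4e-08). As ratios of group means, EKO was 9.79-fold, 14.1-fold and 11.1-fold above WT. C3ar1, the receptor for the anaphylatoxin C3a on myeloid cells, ran from 2.545 to 241.6 over the series. As a ratio of highest to lowest value this was the widest range of the 9 members, 94.93-fold. It stood at 241.6, 179.4 and 237.7 in EKO on WD at 22 weeks and at 9.423, 14.35 and 7.267 in WT. No other library exceeded 41.93, and the difference was 4.32 ± 0.42 (adjusted p = 1.2e-08), a ratio of means of 21.2.

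**Figure D1:**
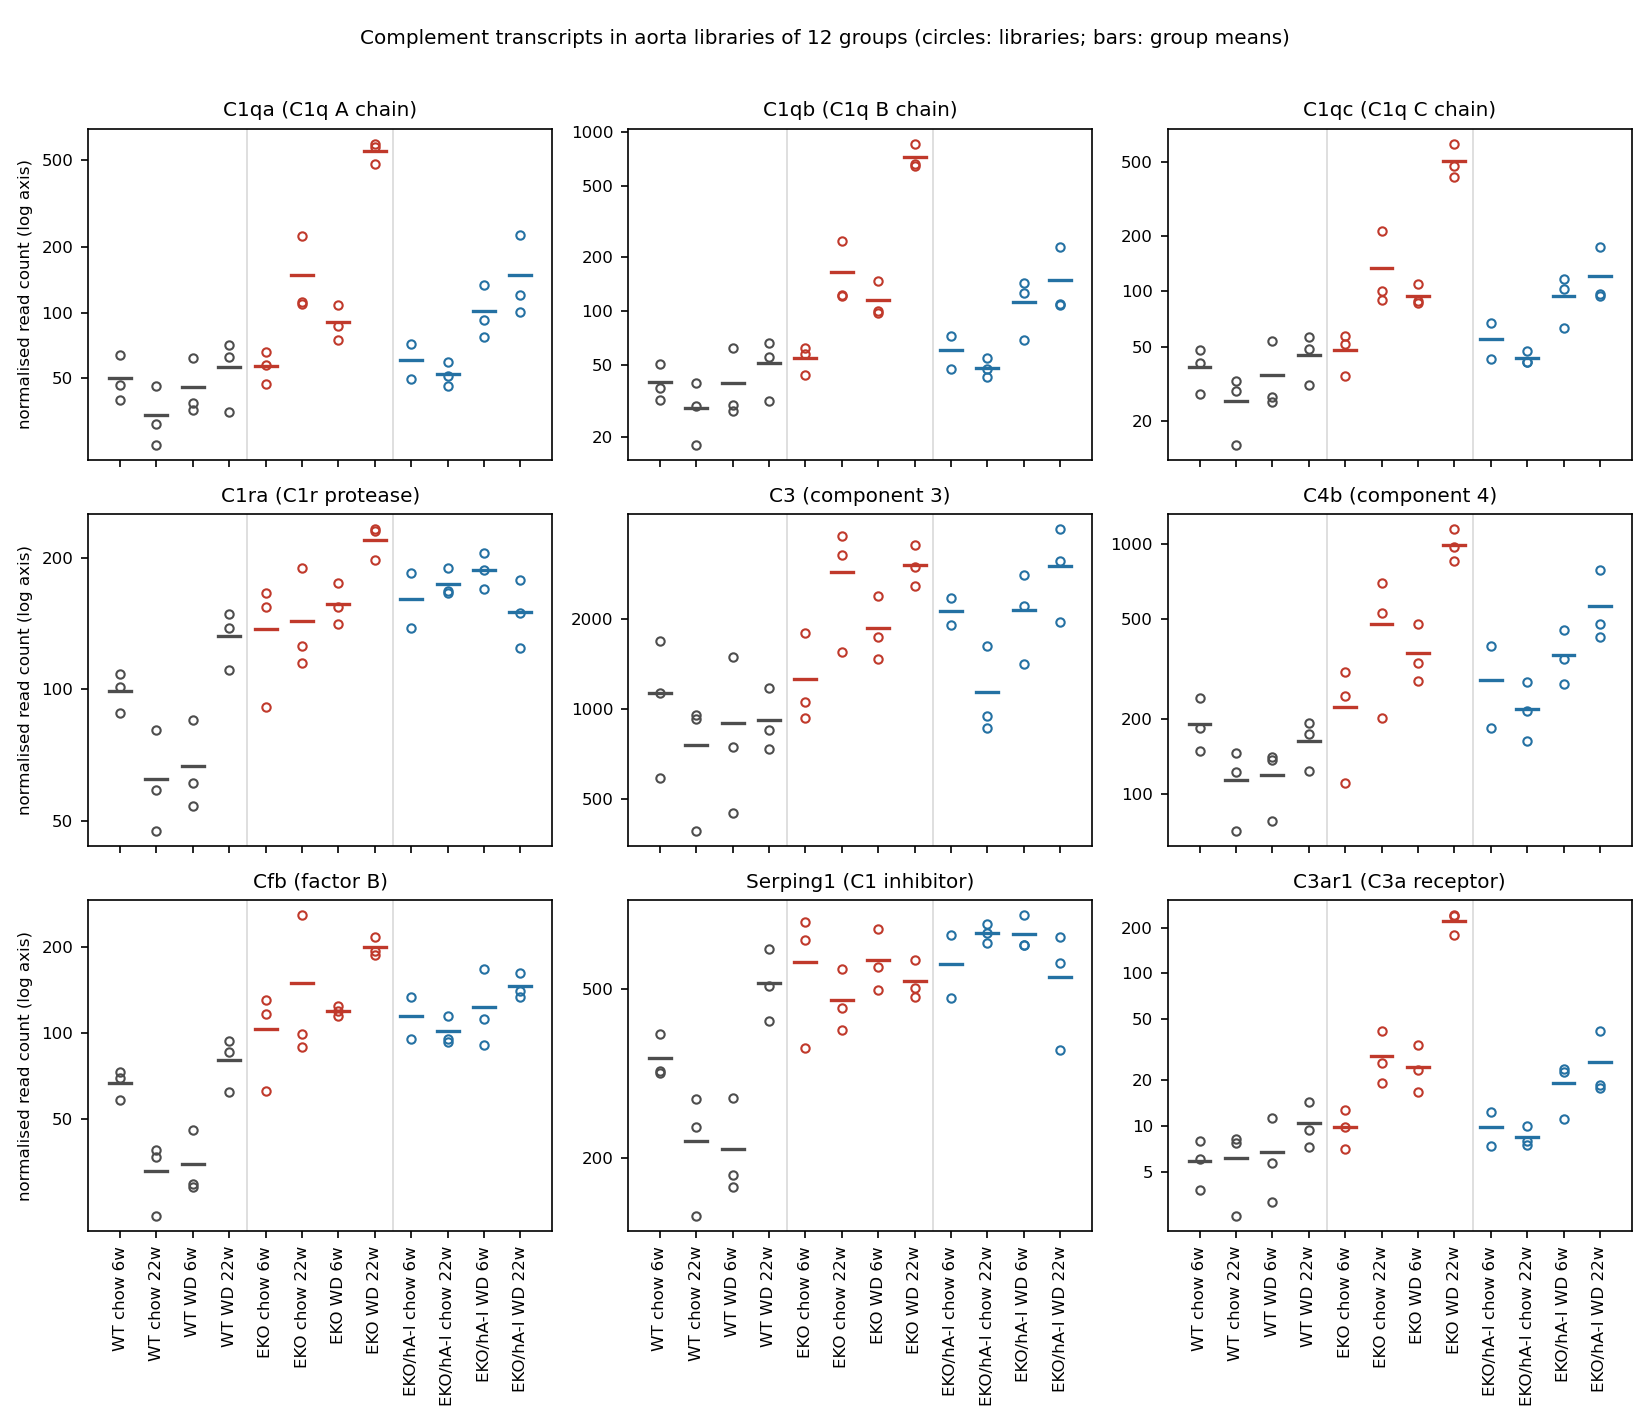
Normalised read count, a unit inferred from the values (y, log axis), of each of the 9 members in the 12 groups (x, with WT grey, EKO red and EKO/hA-I blue). Circles are libraries and bars are group means; C1qa, C1qb, C1qc, C4b and C3ar1 have all 3 EKO libraries on WD at 22 weeks (22w) above every other library, which is not so for C1ra, C3, Cfb and Serping1.

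After 22 weeks of WD, 8 of the 9 members rose in EKO relative to WT, while 14.8% of all genes tested were called higher and 22% in either direction. The median member difference was 2.61, against -0.01 over all genes. C4b, the thioester protein cleaved by C1s, was 853.7, 1144 and 976.7 in EKO and 173.2, 192.7 and 123.8 in WT, with a difference of 2.61 ± 0.41 (adjusted p = 2.6e-05). Its paralog C4a was listed at 0.596 to 2.94 over all libraries; how reads shared by the 2 copies were split is not given in the sources used here, so the C4b level is uncertain to that extent. C3, on which all pathways converge, was 2587, 3539 and 2975 in EKO and 1176, 853.1 and 732.6 in WT, a difference of 1.74 ± 0.45 (adjusted p = 0.0055). Cfb, the alternative-pathway protease, was 193.5, 188.4 and 217.7 against 93.99, 85.7 and 61.8 (1.32 ± 0.31, adjusted p = 0.0022). None of these 3 genes had overlapping EKO and WT libraries; 8 of 9 members had every EKO library above every WT library, against 23.7% of all genes. C1ra, one of the mouse C1r genes, was 230.4, 197.7 and 232.4 against 138.2, 148.9 and 110.6, the smallest called rise (0.74 ± 0.22, adjusted p = 0.015). The C1ra call was lost without WT replicate 3 (0.61, adjusted p = 0.091) or EKO replicate 3 (0.69, adjusted p = 0.057). Serping1 was 479.4, 503.8 and 585.7 in EKO and 508.5, 619.6 and 421 in WT. Its groups overlapped, with a difference of 0.03 and a 95% interval from -0.5 to 0.56 (adjusted p = 0.95). The called C1q, C3, C4b, Cfb and C3ar1 rises passed in all 15 alternatives of the analysis. The summed level of the 16 macrophage markers was 6876 to 10750 in EKO and 499.1 to 910.6 in WT. That of the 12 fibroblast and adventitia markers was 11280 to 14830 against 5024 to 7231. Other lists lay apart as well, among them hepatocyte markers, at 110.4 to 402.5 in EKO and 34.63 to 49.12 in WT. Smooth muscle markers were lower in EKO, at 5750 to 9742 against 14990 to 24810. No marker of these lists was at 0 in all libraries of a group, and their part in the members' differences was not tested.

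On chow at 22 weeks all 9 members were higher in EKO than in WT, where 7.35% of all genes were called higher and 15.3% in either direction. The median member difference was 2.02, against 0.03 over all genes. C1qb was 248.7, 122.3 and 123.9 in EKO and 39.63, 29.63 and 17.97 in WT (2.45 ± 0.36, adjusted p = 0.00011). Cfb was 259.3, 89.25 and 99.35 against 36.82, 38.69 and 22.72 (2.02 ± 0.31, adjusted p = 0.00013). In both genes EKO replicate 1 was the highest, and EKO and WT libraries did not overlap. The same held for the other 7 members: 9 of 9 had all EKO libraries above all WT libraries, against 12.3% of all genes. C3 was 3802, 1548 and 3274 in EKO and 952.6, 925.2 and 391.4 in WT (1.93 ± 0.45, adjusted p = 0.005). Serping1, uncalled on WD, was 557.3, 400.4 and 452.2 in EKO on chow and 275.9, 145.8 and 236.5 in WT (1.13 ± 0.26, adjusted p = 0.0043). C1qa, C1qc, C1ra, C4b and C3ar1 rose by 2.06, 2.31, 1.19, 1.95 and 2.11, with SE of 0.22 to 0.42. All 9 calls remained without any 1 library, but none remained when these 2 groups were fitted alone, where only 11 of all genes were called. A term for white adipocyte markers took away the C3 call (0.93, adjusted p = 0.14). The summed level of the 8 white adipocyte markers was 8406 to 14920 in EKO and 5051 to 13390 in WT. The macrophage marker sum was 1365 to 2170 in EKO and 289.6 to 527.2 in WT, without overlap, whereas the fibroblast sums of 4220 to 6319 and 2351 to 6131 overlapped. No marker was at 0 in all libraries of a group, and the part of the macrophage and fibroblast markers in these differences was not tested.

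After 6 weeks on WD 7 of 9 members rose in EKO (3.94% of all genes called higher, 5.44% in either direction), with a median of 1.49 against 0.01 over all genes. Cfb was 119.3, 124.8 and 114.3 in EKO and 29.43, 28.89 and 45.51 in WT, a difference of 1.79 ± 0.31 (adjusted p = 0.0034). Serping1 was 694, 498.3 and 562.7 against 170.8, 182.1 and 276.8 (1.49 ± 0.26, adjusted p = 0.0034). C1ra was 175.2, 141.3 and 154.7 against 54.16, 61.09 and 85.22 (1.24 ± 0.22, adjusted p = 0.0038). In these 3 genes the groups did not overlap, and the same held for 8 of 9 members, against 14.1% of all genes. C1qb rose by 1.57 ± 0.36, C1qc by 1.47 ± 0.35, C4b by 1.63 ± 0.41 and C3ar1 by 1.81 ± 0.42. C1qa (1 ± 0.32, adjusted p = 0.061) and C3 (1.2 ± 0.45, adjusted p = 0.11) did not pass. With the 2 groups fitted alone, 0 members were called (1 of all genes); without WT replicate 1 or 2 or EKO replicate 1, 3 were called, C1ra, Cfb and Serping1. C1qb and C1qc did not pass with terms for brown fat and skeletal muscle markers (1.48 and 1.46, adjusted p = 0.056 each), and C4b was also lost without EKO replicate 2 or 3. Macrophage markers summed to 1166 to 1845 in EKO and 386.6 to 723.6 in WT, and fibroblast markers to 7428 to 11490 and 2568 to 4176. Both lists lay apart in the direction of the calls, with no marker at 0 in all libraries of a group. Their part in the differences was not tested. On chow at 6 weeks 0 members passed in limma, against 4.97% of all genes, and 1 had an unadjusted p under 0.05. All 9 differences were above 0, from 0.12 to 0.7.

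**Figure D2:**
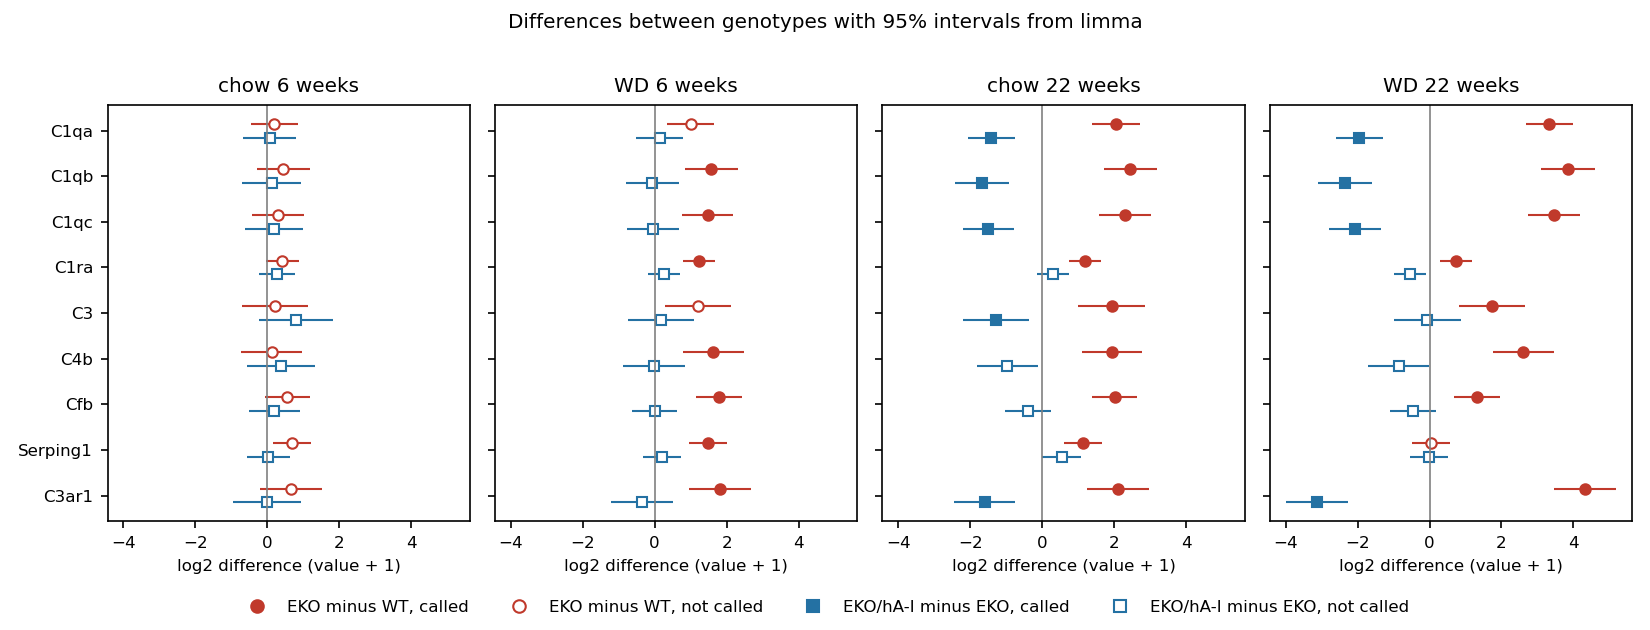
Log2 difference of value plus 1 (x) for the 9 members (y) between EKO and WT (red circles) and between EKO/hA-I and EKO (blue squares) in the 4 combinations of diet and weeks. Lines are 95% intervals from limma and filled symbols have an adjusted p under 0.05; the 2 comparisons share the EKO libraries, and the C1q chains and C3ar1 carry filled symbols on both sides of 0 at 22 weeks.

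Human apoA-I in the EKO background went with lower C1q and C3ar1 at 22 weeks. On WD, C1qa was 121.3, 100.7 and 226.5 in EKO/hA-I, a difference from EKO of -1.96 ± 0.32 (adjusted p = 6.6e-05). C1qb was 110.1, 108.8 and 228.4 (-2.35 ± 0.36, adjusted p = 3.2e-05), and C1qc was 94.81, 96.31 and 173.5 (-2.08 ± 0.35, adjusted p = 9.9e-05). C3ar1 was 17.79, 18.53 and 41.93, which was 0.119 of the EKO mean (-3.12 ± 0.42, adjusted p = 4.4e-06). EKO/hA-I replicate 3 was the highest for all 4 genes and still lay below each EKO library. These 4 of 9 members fell (12.9% of all genes called lower, 18.8% in either direction), and the calls held in all 15 alternatives. C3 was 3120, 1950 and 3989 in EKO/hA-I, overlapping EKO, with a difference of -0.06 and a 95% interval from -0.98 to 0.87 (adjusted p = 0.95). C4b stood at 478.7, 423.7 and 789.5, below each EKO library, but did not pass (-0.86 ± 0.41, adjusted p = 0.15). Cfb (-0.46 ± 0.31), C1ra (-0.55 ± 0.22) and Serping1 (-0.02 ± 0.26) had adjusted p of 0.31, 0.075 and 0.97. In all, 7 of 9 members had every EKO/hA-I library below every EKO library, against 22.8% of all genes. The macrophage marker sum was 1100 to 2427 in EKO/hA-I against 6876 to 10750 in EKO, and the fibroblast sum 3486 to 6442 against 11280 to 14830. Markers of other tissues were higher in EKO/hA-I without overlap. White adipocyte sums were 10360 to 11820 against 4722 to 6980, and brown adipocyte sums 5850 to 7455 against 1324 to 5103. Skeletal muscle sums were 898 to 2873 against 22.91 to 122.5, and hepatocyte sums 404.1 to 567.3 against 110.4 to 402.5. No marker was at 0 in all libraries of a group. The part of the macrophage, fibroblast and hepatocyte markers in the members' differences was not tested. With the terms for white adipocyte, brown fat and skeletal muscle markers the same 4 members were called.

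With 22 weeks of chow, EKO/hA-I had 5 members below EKO (14.9% of all genes called lower, 28.6% in either direction). C1qb was 43.05, 55.32 and 47.43 in EKO/hA-I (-1.67 ± 0.36, adjusted p = 0.0022), below each EKO library. C1qa differed by -1.41 ± 0.32, C1qc by -1.49 ± 0.35 and C3ar1 by -1.6 ± 0.42, with adjusted p of 0.0028, 0.0037 and 0.0069. C3 was 944.7, 1625 and 860.7, and 1 of these libraries exceeded the lowest EKO library (-1.29 ± 0.45, adjusted p = 0.033). Serping1 and C1ra were above EKO without passing: Serping1 was 712.3, 642.4 and 678.8, each above the 3 EKO libraries (0.54 ± 0.26, adjusted p = 0.12), and C1ra was 189.6, 167.7 and 166.6 (0.31 ± 0.22, adjusted p = 0.29). The 8 white adipocyte markers had sums of 2764 to 5007 against 8406 to 14920 in EKO, and the fibroblast markers 9751 to 14410 against 4220 to 6319. The macrophage sum was 588.6 to 814.1 in EKO/hA-I, against 1365 to 2170, and so lay apart in the direction of the calls. No marker was at 0 in all libraries of a group, and the part of the macrophage and fibroblast markers was not tested. With a term for the white adipocyte markers, 0 of the 5 calls remained. The C1q differences were then -1.28, -1.51 and -1.15 for C1qa, C1qb and C1qc (adjusted p = 0.13, 0.11 and 0.2), and C3 turned to 0.23 (adjusted p = 0.84). Terms for brown fat and skeletal muscle markers left the 3 C1q calls. C3 also lost its call without replicate 1 or 3 of either genotype and with a term for low Y-linked transcripts.

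At 6 weeks, EKO/hA-I against EKO gave no member call. On WD 0 members passed in limma (0.0706% of all genes called), and 0 had an unadjusted p under 0.05; C1qb was 126.5, 143.3 and 69.27 in EKO/hA-I and 147.7, 98.46 and 100.2 in EKO, with a 95% interval of the difference from -0.81 to 0.67. On chow, with 2 EKO/hA-I libraries, 0 members passed and 0 had an unadjusted p under 0.05 (0.0777% of all genes called). The EKO/hA-I minus EKO difference on WD was 0.14 for C1qa, -0.07 for C1qb, -0.05 for C1qc and -0.36 for C3ar1 at 6 weeks, none of them called, and it was lower at 22 weeks: the interaction was -2.1 ± 0.45 for C1qa, -2.28 ± 0.51 for C1qb, -2.03 ± 0.49 for C1qc and -2.77 ± 0.59 for C3ar1, with adjusted p of 0.0048, 0.007, 0.014 and 0.0046, where 4.51% of all genes were called lower and 5.12% in either direction. With terms for brown fat and skeletal muscle markers C1qc did not pass (adjusted p = 0.054).

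EKO/hA-I was also set against WT. On WD at 22 weeks, 6 members were higher, the C1q chains, C3, C4b and C3ar1 (8.51% of all genes called higher, 18% in either direction). C4b differed by 1.75 ± 0.41 (adjusted p = 0.0066) and C3 by 1.68 ± 0.45 (adjusted p = 0.013). C3ar1 differed by 1.19 ± 0.42 (adjusted p = 0.047), and this call was lost in 10 of 15 alternatives, among them omission of WT replicate 1, 2 or 3 or of EKO/hA-I replicate 2 or 3. Without WT replicate 3 only C1qa and C4b were called. C1qb was then at 1.19, C1qc at 1.13, C3 at 1.53 and C3ar1 at 0.99 (adjusted p = 0.055, 0.061, 0.057 and 0.16). With terms for brown fat and skeletal muscle markers 0 members were called. No marker was at 0 in all libraries of a group. EKO/hA-I lay above WT without overlap in macrophage markers (sums of 1100 to 2427 against 499.1 to 910.6), white adipocyte markers (10360 to 11820 against 4459 to 6726) and skeletal muscle markers (898 to 2873 against 25.73 to 447.2). The same held for hepatocyte markers (404.1 to 567.3 against 34.63 to 49.12) and brown adipocyte markers (5850 to 7455 against 2977 to 5247). Endothelium markers (1771 to 2610 against 1136 to 1437) and dendritic cell and monocyte markers (49.19 to 75.61 against 27.45 to 32.52) did too. Smooth muscle markers lay below WT, at 3703 to 9372 against 14990 to 24810. The part of the lists other than the adipocyte and skeletal muscle markers was not tested. At 6 weeks on WD all 9 were higher (8% called higher, 16.9% in either direction), led by C1ra (1.5 ± 0.22, adjusted p = 0.00025), Serping1 (1.71 ± 0.26, adjusted p = 0.00037) and Cfb (1.79 ± 0.31, adjusted p = 0.00086). The 2 groups fitted alone gave 4 calls, terms for brown fat and skeletal muscle markers 5, and omission of WT replicate 1 gave 5, whereas the white adipocyte term kept all 9. Macrophage sums were 897.8 to 1646 in EKO/hA-I against 386.6 to 723.6, and fibroblast sums 6879 to 10670 against 2568 to 4176; their part was not tested. On chow at 22 weeks only C1ra (1.5 ± 0.22), Cfb (1.63 ± 0.31) and Serping1 (1.67 ± 0.26) were higher, with adjusted p of 0.00016, 0.0013 and 0.00023 (6.51% of all genes called higher, 13.8% in either direction), and 0 were called with the groups fitted alone. Fibroblast sums there were 9751 to 14410 in EKO/hA-I against 2351 to 6131 in WT. Macrophage sums were 588.6 to 814.1 against 289.6 to 527.2, and the part of both lists was not tested. On chow at 6 weeks 0 passed in limma (0.12% of all genes called), and 3 had an unadjusted p under 0.05. These comparisons share EKO/hA-I libraries with the comparisons against EKO and WT libraries with those of EKO against WT.

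Diet was compared within each genotype at 22 weeks. In WT, C1ra, Cfb and Serping1 rose (0.925% of all genes called higher, 1.36% in either direction). Serping1 was 508.5, 619.6 and 421 on WD and 275.9, 145.8 and 236.5 on chow, without overlap (1.26 ± 0.26, adjusted p = 0.013). C1ra differed by 1.1 ± 0.22 (adjusted p = 0.012) and Cfb by 1.29 ± 0.31 (adjusted p = 0.033). All 3 calls were lost without WT replicate 1 or 2 on WD, and with the 2 groups fitted alone. Serping1 was also lost without replicate 2 on chow (0.99, adjusted p = 0.06). C1ra (1.07, adjusted p = 0.05) and Cfb (1.05, adjusted p = 0.12) were lost without replicate 3 on chow. Terms for brown fat and skeletal muscle markers ended the Cfb call as well. In EKO the C1q chains, C1ra, C4b and C3ar1 rose (13.9% called higher, 18.7% in either direction): C3ar1 went from 41.62, 19.07 and 25.75 on chow to the values above 179 given earlier (2.95 ± 0.42, adjusted p = 1.2e-05). C1qa, C1qb and C1qc rose by 1.96, 2.2 and 2 (adjusted p = 6.7e-05, 7.9e-05 and 0.00017). C3 differed by 0.17 (95% interval -0.75 to 1.09) and was at 1548 to 3802 in EKO on chow. C1ra rose by 0.65 ± 0.22 and C4b by 1.22 ± 0.41 (adjusted p = 0.039 each), and each call was lost in 7 of 15 alternatives. C1ra was lost without replicate 2 or 3 on chow or replicate 1 or 3 on WD, and C4b without replicate 2 or 3 on chow or any 1 library on WD. Without replicate 2 on chow C4b was at 0.69 (adjusted p = 0.27). Without replicate 2 on chow, or replicate 1 or 3 on WD, 4 members were called. The macrophage sum was 1365 to 2170 on chow and 6876 to 10750 on WD, and its part was not tested. No marker was at 0 in all libraries of a group. In EKO/hA-I the C1q chains, C3, C4b and C3ar1 rose (20.7% called higher, 38.2% in either direction), C3 by 1.4 ± 0.45 (adjusted p = 0.017). White adipocyte markers summed to 10360 to 11820 there on WD and 2764 to 5007 on chow. With a term for them, or for brown fat and skeletal muscle, 0 members were called, and without replicate 3 on WD, 3 were. Over the 15 alternatives the lowest values were 1.07 for C1qa (1.42 in the main fit) and 1.16 for C1qb (1.51). They were 1.11 for C1qc (1.4), 0.91 for C3ar1 (1.42), 0.6 for C4b (1.34) and 0.19 for C3 (1.4). At 6 weeks 0 members passed between diets in limma in WT, EKO and EKO/hA-I, where 1.43%, 0.0848% and 0.00706% of all genes were called; 3, 3 and 1 members had an unadjusted p under 0.05.

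The rise of C3ar1 in EKO over WT was larger on WD than on chow at 22 weeks, by 2.2 ± 0.59 (adjusted p = 0.023; 4.99% of all genes called higher, 6.21% in either direction). It was the only member called in that interaction, and the call was lost with the compared groups alone, with a pseudocount of 0.1, and without WT replicate 1 or 2 on chow, WT replicate 3 on WD, EKO replicate 2 on chow or EKO replicate 1 or 3 on WD. For C1qa, C1qb and C1qc the same interaction was 1.26, 1.4 and 1.15, with adjusted p of 0.094, 0.1 and 0.18. Without WT replicate 3 on WD the C3ar1 interaction was 2 (adjusted p = 0.062). At 6 weeks 0 members had a called interaction with diet in limma; 6 had an unadjusted p under 0.05, and 0% of all genes were called.

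Between 6 and 22 weeks on WD, EKO aortas gained C1q and C3ar1. C1qa went from 108.8, 87.09 and 75.22 to the 482 to 595.3 given above (2.61 ± 0.32, adjusted p = 1.7e-06). C3ar1 went from 33.66, 23.07 and 16.65 to 179.4 to 241.6 (3.16 ± 0.42, adjusted p = 4.6e-06). C1qb rose by 2.65, C1qc by 2.38 and C4b by 1.46, so that 5 of 9 members were called (10.5% of all genes called higher, 13.4% in either direction). The C4b call was lost without EKO replicate 1 or 3 at 6 weeks or replicate 2 at 22 weeks (adjusted p of 0.063 to 0.069). The macrophage marker sum went from 1166 to 1845 at 6 weeks up to 6876 to 10750 at 22 weeks, and the fibroblast sums, 7428 to 11490 and 11280 to 14830, overlapped. No marker was at 0 in all libraries of a group, and the part of both lists in the gain was not tested. WT aortas on WD gained C1ra, Cfb and Serping1 over the same time (3.21% called higher, 6.68% in either direction). Fibroblast markers in WT summed to 2568 to 4176 at 6 weeks and 5024 to 7231 at 22 weeks, without overlap. The WT macrophage sums, 386.6 to 723.6 and 499.1 to 910.6, overlapped, and the part of both lists was not tested. Serping1 went from 170.8, 182.1 and 276.8 to 508.5, 619.6 and 421 (1.31 ± 0.26, adjusted p = 0.0051), C1ra by 0.99 ± 0.22 (adjusted p = 0.01) and Cfb by 1.2 ± 0.31 (adjusted p = 0.022). Of these only Serping1 was called without replicate 1 at 6 weeks or replicate 2 at 22 weeks, and 0 were with the 2 groups fitted alone or with terms for brown fat and skeletal muscle. The difference between EKO and WT therefore grew for C1qa (2.32 ± 0.45), C1qb (2.27 ± 0.51), C1qc (1.99 ± 0.49) and C3ar1 (2.51 ± 0.59) and shrank for Serping1 (-1.46 ± 0.36), with adjusted p of 0.0017, 0.0056, 0.011, 0.0078 and 0.012 (in this interaction 5.87% of all genes were called higher, 2.77% lower and 8.64% in either direction). These 5 calls remained without any 1 library.

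On chow, EKO gained the C1q chains and C3ar1 between 6 and 22 weeks (13.3% of all genes called higher, 27% in either direction). C1qb went from 44.08, 62.62 and 58.04 to 248.7, 122.3 and 123.9 (1.5 ± 0.36, adjusted p = 0.0046) and C3ar1 from 9.825, 12.66 and 7.006 to 41.62, 19.07 and 25.75 (1.42 ± 0.42, adjusted p = 0.014). White adipocyte markers summed to 3676 to 5871 at 6 weeks and 8406 to 14920 at 22 weeks. With a term for them 0 members were called, and without replicate 1 at 22 weeks 2 were. C3ar1 was also lost without replicate 3 at 6 weeks and with terms for brown fat and skeletal muscle markers. The lowest values over the 15 alternatives were 0.95 for C1qa (1.29 in the main fit) and 1.17 for C1qb (1.5). They were 0.99 for C1qc (1.37) and 0.97 for C3ar1 (1.42). The macrophage sum was 601.7 to 954.2 at 6 weeks and 1365 to 2170 at 22 weeks, and its part was not tested. The difference between EKO and WT on chow was larger at 22 than at 6 weeks for C1qa, C1qb, C1qc, C4b and Cfb, by 1.86, 2, 2.01, 1.83 and 1.46 (adjusted p = 0.01, 0.013, 0.011, 0.037 and 0.028; 7.32% called higher, 15.1% in either direction). With the compared groups alone, or with the white adipocyte term, 0 of these 5 were called, and without WT replicate 1 at 6 weeks C1qa and C1qc were. Over the 21 alternatives the lowest values were 1.52 for C1qa, 1.66 for C1qb, 1.63 for C1qc, 0.82 for C4b and 0.97 for Cfb. The C4b call was lost without WT replicate 1 or 2 at 6 weeks, WT replicate 1 or 3 at 22 weeks, or EKO replicate 1 or 3 at either time. The Cfb call was lost without WT replicate 1 or 2 at 6 weeks, WT replicate 3 at 22 weeks, or EKO replicate 1 at either time, and it was 0.97 (adjusted p = 0.092) without EKO replicate 1 at 22 weeks. WT on chow and EKO/hA-I on WD or chow had 0 members called in limma between the times (0.12%, 0.0706% and 0.00706% of all genes called), with 3, 0 and 0 members at an unadjusted p under 0.05. At 22 weeks the EKO/hA-I minus EKO difference was lower on WD than on chow for C1ra (-0.87 ± 0.31, adjusted p = 0.032) and C3ar1 (-1.53 ± 0.59, adjusted p = 0.046). For C1ra it was -0.55 on WD and 0.31 on chow, neither of them called, and for C3ar1 -3.12 and -1.6, both called. In this interaction 18.6% of all genes were called lower and 34.2% in either direction. With terms for brown fat and skeletal muscle markers, or with the white adipocyte term, 0 of these 2 were called, and with a replicate block only C1ra was; omission of EKO replicate 2 or 3 on chow, EKO replicate 1 or 3 on WD, EKO/hA-I replicate 1 on chow or EKO/hA-I replicate 1 or 2 on WD gave 0.

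Co-variation of the members was described next. Over 35 libraries, which share groups and differ in depth, Pearson r between log2 values was 0.969 to 0.996 among the C1q chains and C3ar1 (6 pairs). It was 0.928 between C1ra and Serping1. Between the first set and the other 5 members r ran from 0.399 to 0.924. With group means subtracted the first set still had r of 0.824 to 0.967 and C1ra with Serping1 0.893, while C3 and Serping1 had 0.099. Groups ranked by mean level overlapped with their neighbours in most cases: of 11 neighbouring pairs, 9 to 11 overlapped in each member, and C3 had all 11 overlapping.

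**Figure D3:**
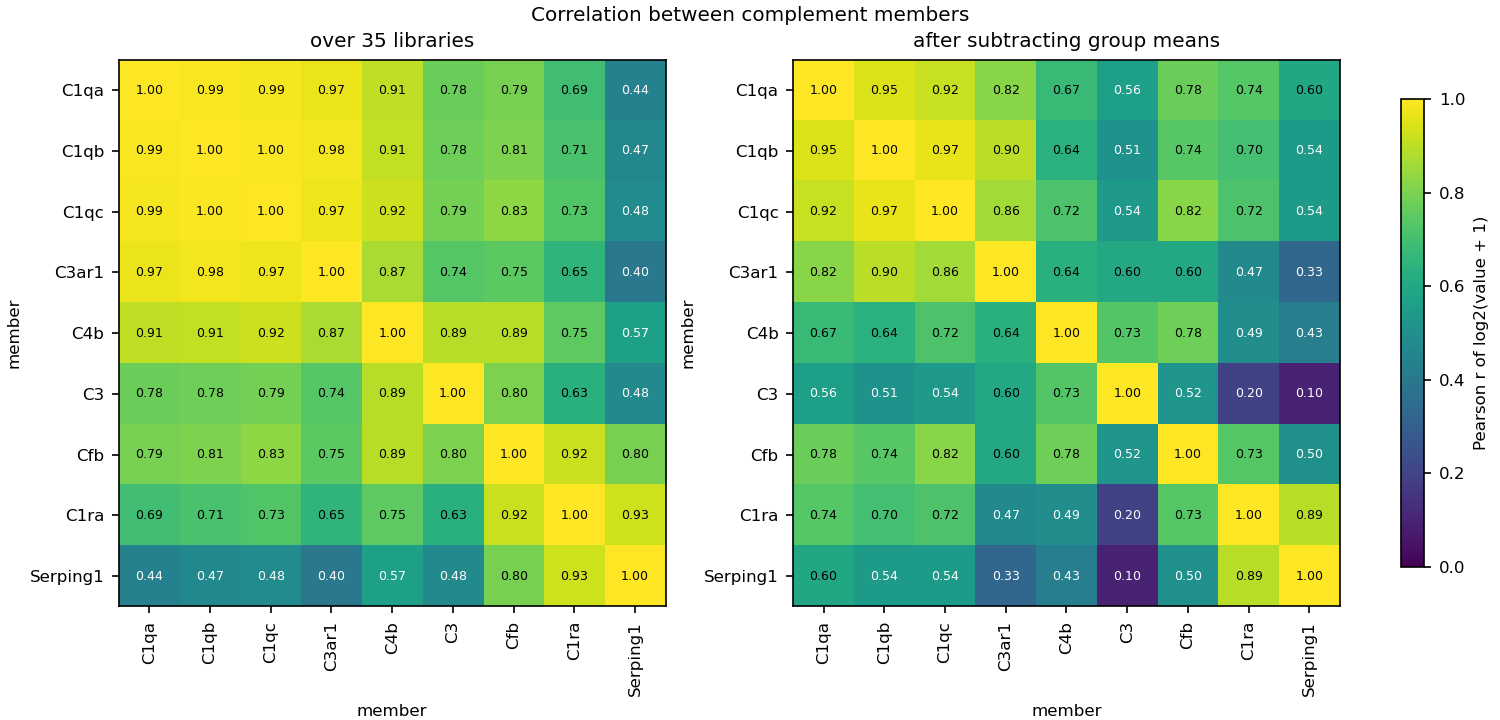
Pearson r of log2(value + 1) between members over 35 libraries (left) and after group means were subtracted (right), coloured from 0 to 1. C1qa, C1qb, C1qc and C3ar1 form a block of 0.969 and above on the left, and C1ra with Serping1 a pair at 0.928.

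For each member the 3 genes with the highest r over 35 libraries were taken. Outside the C1q chains themselves, Tyrobp and Fcer1g, adaptor proteins of myeloid immune receptors, had the highest r with them (Tyrobp 0.989 with C1qb and 0.985 with C1qc, Fcer1g 0.983 with C1qa). For C3ar1 these were Fcgr3, Cd68 and Lilrb4a (r = 0.983 each), an Fc receptor, a lysosomal macrophage glycoprotein and an inhibitory myeloid receptor. C1ra had Man2b2 (0.966), Emilin2 (0.942) and Fndc1 (0.935), and Serping1 had Cpxm2 (0.954), Pcolce (0.952) and Olfml3 (0.949); Emilin2 is an extracellular matrix glycoprotein and Pcolce enhances procollagen processing. C4b was nearest to Nfam1, Ugt1a7c and Alox5ap (0.956, 0.941 and 0.938), Cfb to Csf1r, Emilin2 and Folr2 (0.953, 0.951 and 0.934), and C3 to Tcn2, C4b and Lgals3bp (0.893, 0.892 and 0.886). Against the mean of the 16 macrophage markers r was 0.971 to 0.984 for the C1q chains and 0.974 for C3ar1, 0.923 for C4b, 0.841 for Cfb, 0.803 for C3, 0.744 for C1ra and 0.5 for Serping1. Against the 12 fibroblast and adventitia markers r was 0.918 for Serping1, 0.892 for C1ra and 0.717 for Cfb, and 0.377 to 0.475 for the other 6. With group means subtracted, the r with the fibroblast markers was 0.915 for C1ra and 0.875 for Serping1, but 0.53 for Cfb and 0.551 to 0.663 for the C1q chains, so that Cfb no longer stood above these. C3 within groups had r of 0.615 with the macrophage markers, 0.595 with the white adipocyte, 0.559 with the brown adipocyte and -0.628 with the smooth muscle markers.

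**Figure D4:**
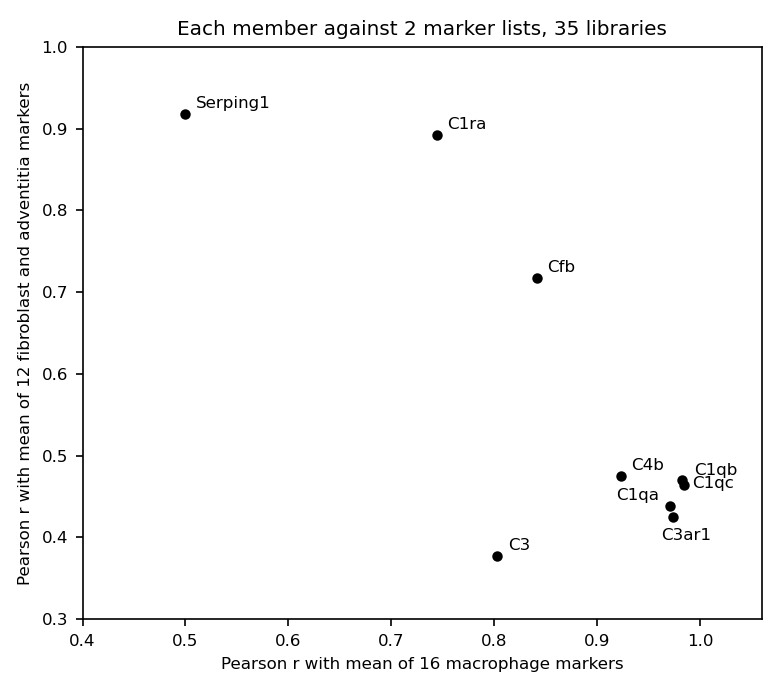
Pearson r of each member over 35 libraries with the mean log2 level of 16 macrophage markers (x) and of 12 fibroblast and adventitia markers (y); each point is 1 gene. Serping1 and C1ra lie highest and farthest left of the 9, the C1q chains and C3ar1 low and farthest right, and Cfb between them. C4b and C3 also lie low, to the left of the C1q chains.

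The C1q chains and C3ar1 were also set against the macrophage markers within each library, as the member's log2 value minus the mean log2 of the 16 markers. C3ar1 was at -0.95 ± 0.17 (SD, n = 3) in WT, 0.74 ± 0.07 in EKO and -0.84 ± 0.39 in EKO/hA-I on WD at 22 weeks. C1qb was at 1.23 ± 0.21, 2.46 ± 0.18 and 1.65 ± 0.36 in the same groups. In both genes every EKO library was above every WT and EKO/hA-I library on this scale. C1qa was at 1.79 to 2.39 in EKO, above the 1.15 to 1.5 of WT but overlapping the 1.15 to 1.96 of EKO/hA-I. C1qc was at 1.58 to 2.15 in EKO and 0.98 to 1.15 in WT, and its lowest EKO library equalled the highest of EKO/hA-I (1.09 to 1.58) to 2 decimals. Of the other members on this scale, C1ra was at 2.64 in WT and 0.75 in EKO, Serping1 at 4.59 and 2, and Cfb at 1.92 and 0.62. C3 was at 5.41 and 4.52, and C4b at 2.93 and 2.91. The scale gives each marker equal weight. As summed levels the markers had means of 720 in WT, 8776 in EKO and 1698 in EKO/hA-I. The C1qb means were 51.26, 724.6 and 149.1. These values are a description without a test, and they depend on how the markers are combined. The shares of the 3 C1q chains differed too. C1qb took 37.7 to 42.7% of the summed C1q values in EKO on WD at 22 weeks, 36.3 to 38.1% in EKO on chow at 22 weeks and 29.9 to 34.8% in the 12 WT libraries, whereas C1qa took 27.9 to 34.7% in EKO on WD at 22 weeks and 36 to 37.4% in WT there. The shift was not confined to 22 weeks. After 6 weeks of WD, C1qb took 36.2 to 40.4% in EKO and 33 to 39.3% in EKO/hA-I, and C1qa 28.5 to 32% and 28.7 to 37%. C1qc stayed within 25.8 to 33.6% in all 35 libraries. These shares are taken as not corrected for length, so only their change between groups can be read.

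Other genes of the cascade gave a frame for the members. Of 61 listed complement genes 40 were measured and tested, with receptors the best covered (13 of 13). With WD for 22 weeks 15 of 40 rose in EKO over WT and 1 fell (14.8% of all genes called higher, 22% in either direction), with a median of 0.29 against -0.01 over all genes. By group, 7 of 13 receptors, 3 of 5 alternative and terminal components, 2 of 9 classical and lectin genes and 3 of 13 regulators rose, of which the last 2 shares lie near that of all genes. Itgax and Itgb2, which form complement receptor 4 for cleaved C3, rose from 3.277, 8.862 and 1.629 to 343.7, 267.6 and 511.8 (6.24 ± 0.56, adjusted p = 4.3e-09) and from 38.45, 32.24 and 12.82 to 354.7, 288.4 and 451.8 (3.78 ± 0.43, adjusted p = 2.2e-07). Cfi, the protease that inactivates C3b and C4b, was 7.141, 4.221 and 5.931 in EKO and 0.0655, 0.5455 and 0 in WT (2.49 ± 0.27, adjusted p = 7.2e-08), low in both. Cfp, properdin, which stabilises the alternative convertase, rose from 25.87, 21.87 and 15.53 to 83.53, 94.97 and 99.87 (2.11 ± 0.29, adjusted p = 3.2e-06). Cd59a, which blocks the membrane attack complex, was the 1 gene that fell, from 121.5, 117.6 and 151.4 to 58.36, 74.17 and 75.96 (-0.9 ± 0.16, adjusted p = 0.00017).

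**Figure D5:**
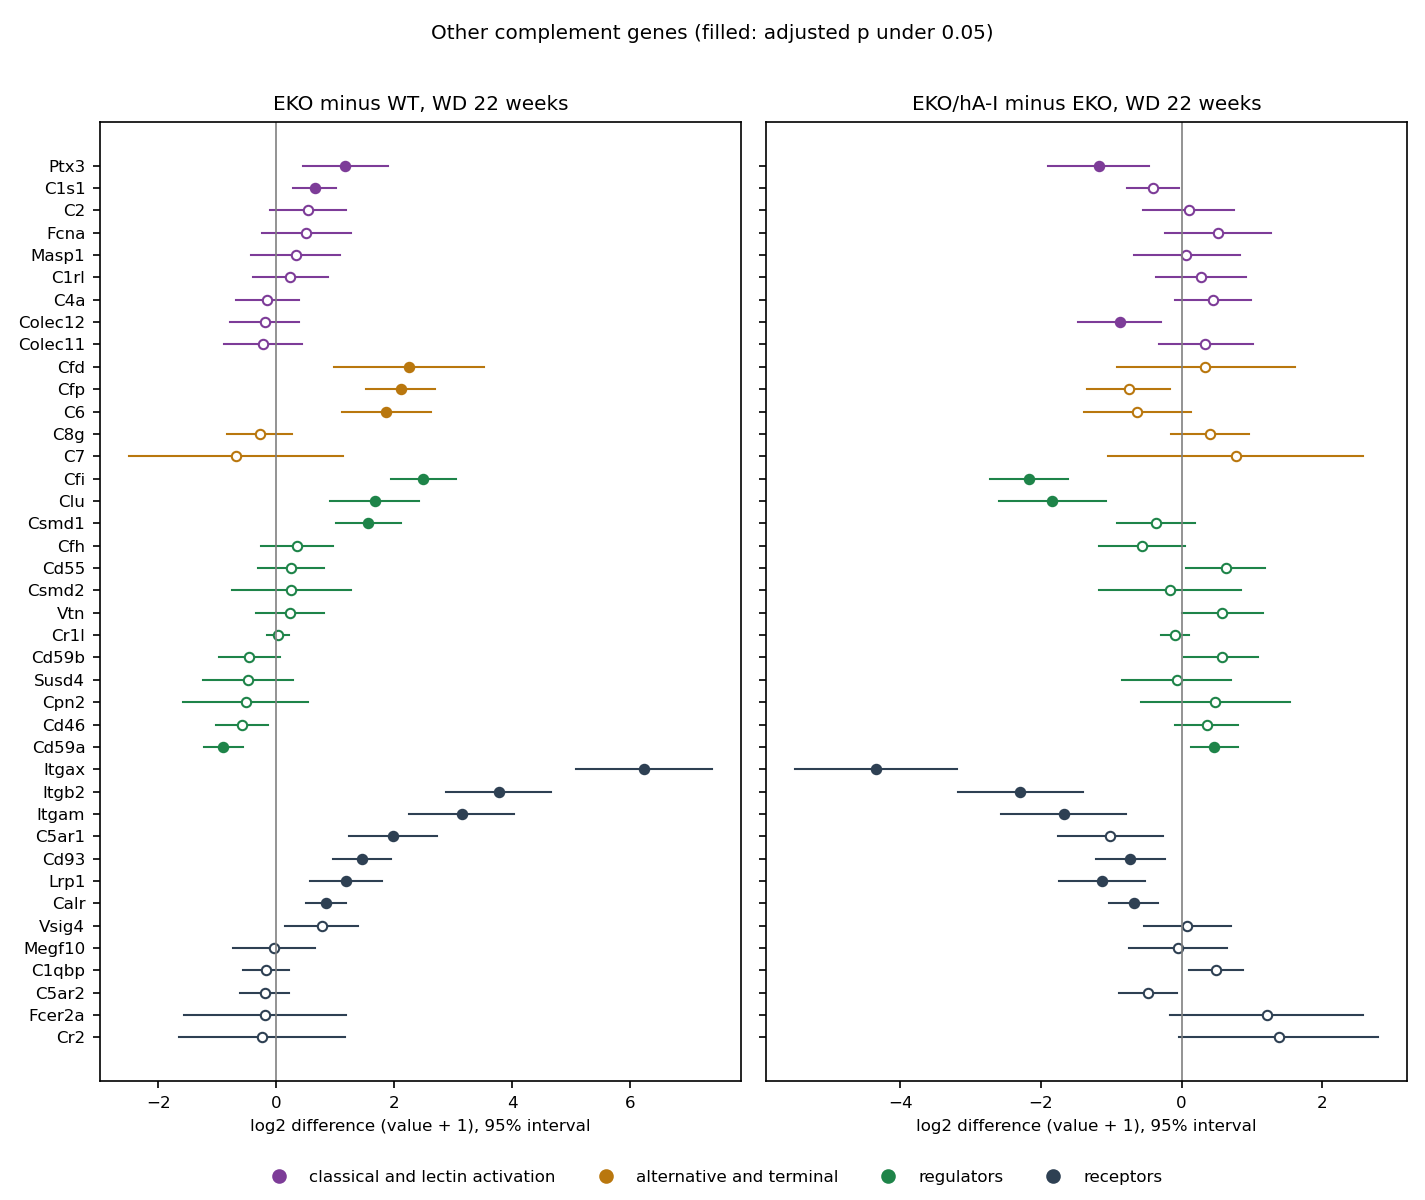
Log2 difference of value plus 1 with 95% interval (x) for 40 complement genes other than the 9 members (y; coloured by role) on WD at 22 weeks, EKO minus WT (left) and EKO/hA-I minus EKO (right). Filled circles have an adjusted p under 0.05; Itgax stands farthest from 0 in both panels, at 6.24 and -4.34, and Cd59a is filled on the opposite side of 0 from most.

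On chow at 22 weeks 10 of the 40 rose and 2 fell in EKO against WT (7.35% of all genes called higher, 15.3% in either direction; median 0.56, against 0.03). Itgb2 (2.61 ± 0.43), Itgax (3.05 ± 0.56), C1s1, which encodes the C1s partner of C1r (0.91 ± 0.18), and Fcna, a ficolin of the lectin pathway (1.74 ± 0.37), had the smallest adjusted p among the rises, from 0.0003 to 0.0024. The falls were Cd59a (-0.67 ± 0.16, adjusted p = 0.0073) and C5ar2, a C5a receptor, at 0.8738, 0.6189 and 1.067 against 2.734, 1.37 and 2.123 in WT (-0.71 ± 0.2, adjusted p = 0.019). Between EKO/hA-I and EKO after 22 weeks of WD 10 fell and 1 rose (12.9% of all genes called lower, 18.8% in either direction; median -0.06, against -0.02). Cfi, at 0.126, 0.4987 and 0.918 in EKO/hA-I, fell by 2.17 (adjusted p = 1.6e-06). Itgax fell by 4.34 (adjusted p = 2.8e-06), Itgb2 fell by 2.29 (adjusted p = 0.00042) and Clu, clusterin, fell by 1.84 (adjusted p = 0.00078). Cd59a rose, to 103.3, 92.83 and 91.25 (0.46 ± 0.16, adjusted p = 0.048). The comparisons with EKO share its libraries, so the opposite signs are not independent of each other.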

How the data were processed

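The authors deposited 1 table of normalised signal per gene and library; its values behave like estimated reads scaled library by library, which was inferred from the values and is not given in the sources used here. Bowtie 0.12.2, Bowtie2, RSEM and the builds mm8 and mm9 are named per the submitters' processing notes, with no role or order. Of the values up to 1.5 only 71.5 to 81.6% per library lay within 0.02 of a whole read, so tools for counts were not used.

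Log2(value + 1) was fitted with limma 3.58.1 (R 4.3.3; robust, with trend) as 12 group means over 35 libraries and 14157 genes that reached 1 in 3 or more libraries (17 did not). There were 24 comparisons of 2 groups and 6 interactions, two-sided, Benjamini-Hochberg adjusted within each over all genes tested, with a threshold of 0.05. The procedure was tested on simulated data. Promoters and gene order came from RefSeq (GRCm38.p6).

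Groups follow the titles. Named genes are the 9 members, Apoe and mouse Apoa1 (0 to 7.637 in all libraries, and no check of the human gene), the 3 genes most correlated with each member, and up to 4 rises and 4 falls of smallest adjusted p among other complement genes in 3 comparisons at 22 weeks, plus any of opposite direction. The members and all lists were chosen with earlier results of these data known. Alternatives were fitting only the groups compared, blocking on replicate number, pseudocounts of 0.1 and 5, no filter, median-ratio rescaling, terms for brown fat and skeletal muscle markers, for libraries with low Y-linked transcripts (mean under 5) and, chosen after seeing the data, for white adipocyte markers, and each library left out in turn. Same-numbered libraries deviated together in every pair in 22 against 6 weeks for WT on WD (r 0.13 to 0.34) and EKO on WD (0.12 to 0.44). This was seen in the data and is not from a label. The printed values and p-values come from the unpaired limma fit of group means. Replicate number entered only as the block among the alternatives.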

Additional observations from a re-analysis of the deposited data

Results flagged for a closer look

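In each case below the difference between 2 genotypes itself differed between diets or times, by limma's interaction test, with the log2 value given. The EKO minus WT difference on WD was larger at 22 than at 6 weeks for C1qa (2.32), C1qb (2.27), C1qc (1.99) and C3ar1 (2.51) and smaller for Serping1 (-1.46), with adjusted p from 0.0017 to 0.012. Of all genes, 5.87% were called higher there and 2.77% lower. On chow the EKO minus WT difference was larger at 22 than at 6 weeks for C1qa (1.86), C1qb (2), C1qc (2.01), C4b (1.83) and Cfb (1.46), with adjusted p from 0.01 to 0.037. There 7.32% of all genes were called higher and 15.1% in either direction. The C4b call was lost in 10 of 21 alternatives and the Cfb call in 7. At 22 weeks the EKO minus WT difference was larger on WD than on chow for C3ar1 (2.2, adjusted p = 0.023), where 4.99% of all genes were called higher. This call was lost in 8 of 21 alternatives.

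The EKO/hA-I minus EKO difference on WD was lower at 22 than at 6 weeks for C1qa (-2.1), C1qb (-2.28), C1qc (-2.03) and C3ar1 (-2.77), with adjusted p from 0.0046 to 0.014. Of all genes, 4.51% were called lower there. At 22 weeks the EKO/hA-I minus EKO difference was lower on WD than on chow for C1ra (-0.87, adjusted p = 0.032) and C3ar1 (-1.53, adjusted p = 0.046). These were 2 of 9 members, while 18.6% of all genes were called lower and 34.2% in either direction, so the member share lay near that of all genes. The C1ra call was lost in 9 of 21 alternatives and the C3ar1 call in 13. In 12 of 35 libraries Y-linked transcripts were low, and white adipocyte and fibroblast marker sums differed between the 22-week groups; their part in these interactions was not tested beyond the terms described next.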

How the results depend on the processing

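Of 95 called member results, 1313 of 1527 values under the alternatives kept direction and call, 213 lost the call and 1 reversed: C3 in EKO/hA-I against EKO on chow at 22 weeks, 0.23 with the white adipocyte term. Rescaling (factors 0.971 to 1.019), no filter and a pseudocount of 5 changed no called member result.

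Members called were 0 with the compared groups alone for EKO against WT on WD at 6 weeks and on chow at 22 weeks, EKO/hA-I against WT on chow at 22 weeks (4 on WD at 6 weeks), WD against chow in WT at 22 weeks, 22 against 6 weeks in WT on WD, and the EKO minus WT interactions with diet at 22 weeks and with time on chow. With the brown fat and skeletal muscle terms they were 0 for EKO/hA-I against WT after 22 weeks of WD, WD against chow in EKO/hA-I at 22 weeks, 22 against 6 weeks in WT on WD and the EKO/hA-I minus EKO interaction with diet, 3 for EKO/hA-I against EKO on chow at 22 weeks, 5 for EKO/hA-I against WT after 6 weeks of WD and 2 for the EKO minus WT interaction with diet. With the white adipocyte term they were 0 for EKO/hA-I against EKO on chow at 22 weeks, WD against chow in EKO/hA-I at 22 weeks, 22 against 6 weeks in EKO on chow and the interactions of EKO minus WT with time on chow and of EKO/hA-I minus EKO with diet, and 2 for WD against chow in WT at 6 weeks, 22 against 6 weeks in WT on chow and the EKO minus WT interaction with diet. A pseudocount of 0.1 gave 0 for the EKO minus WT and 1 for the EKO/hA-I minus EKO interaction with diet. The replicate block also gave 1 for the latter, ended C3ar1 in EKO/hA-I against WT after 22 weeks of WD, and changed no other called member result. With the compared groups alone, EKO against WT on WD at 6 weeks and on chow at 22 weeks had very few calls among all genes too, as given above. For the other alternatives the calls among all genes are not set beside these counts, so the counts describe the members alone. The cause of these changes was not tested.

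Leaving out 1 library gave, on WD, 7 to 8 members for EKO against WT at 22 weeks and 3 to 8 at 6 weeks, 4 to 4 and 0 to 0 for EKO/hA-I against EKO, and 2 to 6 and 5 to 9 for EKO/hA-I against WT. On chow at 22 weeks it gave 9 to 9, 4 to 6 and 3 to 3 for these 3 comparisons, and at 6 weeks 0 to 2, 0 to 0 and 0 to 0. WD against chow at 22 weeks gave 0 to 3 in WT, 4 to 7 in EKO and 3 to 6 in EKO/hA-I, and 22 against 6 weeks 1 to 3 in WT on WD, 4 to 5 in EKO on WD and 2 to 6 in EKO on chow. The EKO minus WT interactions gave 0 to 3 with diet at 22 weeks, 5 to 5 with time on WD and 2 to 6 with time on chow, and the EKO/hA-I minus EKO interactions 0 to 2 with diet and 4 to 4 with time. Where this left 1 library in a group, it was assumed to vary like the others. The share of all genes called without 1 library is not given here, so these ranges describe the members alone. Count-based tools were not run. Depth of 6856000 reads at the shallowest limits low genes such as C3ar1 in WT; 2 to 3 libraries a group limit all comparisons.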
